A study of Mus musculus with 3 samples.

Results

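Spi1, Cebpa, Cebpb, Cebpe, Irf8, Gfi1 and Klf4 are transcription factors that direct blood progenitors of the bone marrow into neutrophils, monocytes and dendritic cells. These 7 genes were taken by symbol from the 56980 genes listed in each of 3 single-cell libraries of mouse bone marrow nucleated cells (BMNCs), and every gene symbol was found. Control came from mice without irradiation, IR from mice given 6.0 Gy of gamma-irradiation, and IR+CBD from mice given 6.0 Gy and cannabidiol (CBD), a compound of the hemp plant that is not psychoactive. All marrow was collected at day 14. According to the methods, the mice were C57BL/6 and males were used for irradiation, CBD was injected 4 times at 50 mg/kg around the exposure, and irradiated mice without CBD received its solvent of soybean oil and DMSO. The IR+CBD label itself names the CBD treatment alone, and its irradiation comes from the description of the design. The sources used here give neither the age of these mice nor whether Control mice received the solvent. Each library pooled 3 mice, whose Lin-Kit+, Lin-Kit- and Lin+ cells (Lin marks mature lineages, Kit marks progenitors) were sorted and remixed at 5:4:1, so cell shares describe this mix and not intact marrow. With 1 library per group no difference between groups has a replicate check, and intervals below are 95% intervals that cover counting error only.

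Lineage choice among these cells is commonly described as a contest between factors. Spi1 (PU.1) and Cebpa act early: PU.1 opens myeloid genes broadly, and C/EBP alpha is required to form granulocyte-monocyte progenitors. Irf8 and its target Klf4 then favor monocytes, and Irf8 is also needed for dendritic cells, while Gfi1 represses monocyte genes, and Cebpe is required for the secondary granules of neutrophils. Cebpb sustains granulocyte formation under stress and is high in mature phagocytes.

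In the mouse genome build GRCm38 (GENCODE M21), the genes lie at chr2:91082390-91115756 (Spi1, plus strand), chr7:35119293-35121928 (Cebpa, plus), chr2:167688915-167690418 (Cebpb, plus), chr14:54710360-54712174 (Cebpe, minus), chr8:120736358-120756694 (Irf8, plus), chr5:107716657-107726036 (Gfi1, minus) and chr4:55527143-55532466 (Klf4, minus). Their identifiers in the count tables are ENSMUSG00000002111, ENSMUSG00000034957, ENSMUSG00000056501, ENSMUSG00000052435, ENSMUSG00000041515, ENSMUSG00000029275 and ENSMUSG00000003032 in the same order. All 7 are annotated as protein coding. The counts carry no positions, and the labels name GRCm39 for the counting, so these positions were taken by Ensembl identifier and serve for orientation only. RefSeq promoter entries for GRCm38.p6 were matched for 5 of the 7 members (7 entries in all, each from 250 bases before to 50 bases after a transcription start). The part before the start is shown for Irf8, which is known to be induced by interferon gamma, and for Klf4, which had the lowest ratio of IR to Control among the members over all cells. Capitals mark TTCNNNGAA, the gamma interferon activated site, in Irf8 (chr8:120736108-120736357, plus strand) and GGGCGG, the GC box read on both strands, in Klf4 (chr4:55532476-55532725, minus strand).
Irf8: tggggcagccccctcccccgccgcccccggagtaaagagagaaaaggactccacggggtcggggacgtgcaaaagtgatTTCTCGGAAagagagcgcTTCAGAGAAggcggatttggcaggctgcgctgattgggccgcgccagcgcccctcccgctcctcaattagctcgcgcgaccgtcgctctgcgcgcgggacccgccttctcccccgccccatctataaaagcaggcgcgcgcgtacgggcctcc
Klf4: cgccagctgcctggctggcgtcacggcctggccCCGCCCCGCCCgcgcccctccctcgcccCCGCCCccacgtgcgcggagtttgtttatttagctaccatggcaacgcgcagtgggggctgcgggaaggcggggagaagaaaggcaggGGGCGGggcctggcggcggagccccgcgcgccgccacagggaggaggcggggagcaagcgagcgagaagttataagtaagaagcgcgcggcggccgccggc

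The Irf8 window shown held 2 matches to TTCNNNGAA, which begin 171 and 153 bases before the start. No other of the 7 member entries held one, and 8.3% of the 32851 promoter entries did. The core of the interferon response element was in 0 of the 7 entries and in 3.44% of all entries. AAATCA, the GFI1 core, was in both Irf8 entries and in 14.0% of all entries, and in the window shown it overlaps the first TTCNNNGAA. Klf4 held 4 GC boxes, of which the first pair overlaps, and 3 of the 7 entries held at least 1, against 35.7% of all entries. The C/EBP core TTGCNNAA was found in 1 of the 7, a Gfi1 entry (10.8% of all entries) and the PU.1 core GAGGAAGT in 0 (3.2% of all entries). A match is a run of letters and no evidence of binding.

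The 3 libraries held 11884 to 12200 barcodes and 177806843 to 206932522 UMIs (molecular tags that count each RNA copy once). Levels are given in the order Control, IR, IR+CBD unless a sentence says otherwise. Cells needed at least 200 genes and at most 5% of UMIs from mitochondrial genes, which kept 10674, 10345 and 10273 cells with a median of 12479.5, 14211.0 and 12502.0 UMIs. Between 35 and 51 barcodes were shared by any 2 libraries. UMIs were summed over cells and scaled to CPM (UMIs per 1000000 UMIs of the same cells). A gene was called past the fold where its CPM ratio was at least 1.5 or at most 1/1.5. It also needed at least 50 UMIs in the 2 libraries together. Intervals of CPM and of CPM ratios treat each UMI as independent, although UMIs of a gene cluster in cells. They thus leave out the spread between cells as well as between mice.

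Cells were also gated on raw UMIs of lineage genes. The 7 myeloid gates were Mpo with F13a1 (at least 10 and at least 2 UMIs), Mpo without F13a1 (at least 10 and 0), Fcnb (at least 10), Retnlg (at least 5), Csf1r with Ccr2 (at least 1 of each), Siglech (at least 3) and Cd34 with Adgrl4 (at least 1 of each). Mpo marks granulocyte-monocyte progenitors, F13a1 their monocyte branch, Fcnb neutrophil precursors, Retnlg mature neutrophils, Csf1r with Ccr2 monocytes and Siglech plasmacytoid dendritic cells. Marker lists were summed without the genes that set the gate. The other 5 neutrophil precursor markers summed to 77192 to 96105 CPM in the Fcnb gate and 53232 to 56897 in the Retnlg gate, against 6413 to 7934 over all cells. The other 5 mature neutrophil markers summed to 1947 to 2310 CPM in the Retnlg gate against 174 to 215 over all cells, the other 4 monocyte markers to 2152 to 2495 in the Csf1r with Ccr2 gate against 748 to 891, and the other 5 plasmacytoid dendritic cell markers to 8098 to 9785 in the Siglech gate against 464 to 608. The Cd34 with Adgrl4 gate held several kinds of cell. Between 59.7% and 79.1% of its cells also passed another gate, and its 6 granulocyte-monocyte progenitor markers, Cd34 among them, summed to 12390 to 15122 CPM against 9084 to 10863 over all cells. Its 6 stem cell markers summed to 362, 262 and 325 CPM, against 232, 152 and 174 over all cells. The 5 endothelial markers summed to 126, 124 and 122 CPM, against 101, 82.1 and 80.1 over all cells. Of these, Cdh5 and Kdr were at most 0.158 and 0.474 CPM and Pecam1, which blood cells also express, was 116 to 119 CPM. Emcn and Tie1 made up the rest. Gates overlapped elsewhere too, since 71.3% to 84.2% of Mpo with F13a1 cells and 81.2% to 86.5% of Csf1r with Ccr2 cells passed another gate. Of the 1353, 1238 and 922 Csf1r with Ccr2 cells, 946, 995 and 703 were also in the Mpo with F13a1 gate. The monocyte gate thus held mostly cells that also passed a progenitor gate, and is not a stage separate from it. The Mpo without F13a1 gate was not made up of granulocyte-monocyte progenitors alone. Its 5 eosinophil markers summed to 832, 1728 and 997 CPM, against 144, 215 and 202 over all cells. Its 5 basophil and mast cell markers summed to 1929, 1576 and 924 CPM, against 391, 274 and 268 over all cells. The Siglech gate held 273 Control, 46 IR and 79 IR+CBD cells, and its ratios are the least precise. Depth differed between libraries within gates. Median UMIs per cell were 39920, 33370 and 26801 in Mpo with F13a1 and 37066, 33142 and 27479 in Csf1r with Ccr2. In Mpo without F13a1 they were 26071, 26504.5 and 20666. Raw thresholds can therefore select different cells by library, which bears on ratios within gates. Thresholds scaled to depth were run as an alternative. Free RNA and doublets can give UMIs in cells that do not express a gene, so shares of cells with a UMI are set beside the share in a myeloid gate that should hold little of that factor.

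The factors differed in where they were found, and the order of gates was largely shared by the 3 libraries. Cebpa was highest in the Mpo without F13a1 gate at 63.9, 71.4 and 60.8 CPM, all above its range in every other gate. The next gates, Cd34 with Adgrl4 (43.9 to 53.7 CPM), Mpo with F13a1 (46.4 to 49.7) and Csf1r with Ccr2 (42.4 to 47.9), did not differ beyond the spread of the libraries. In the neutrophil gates Cebpa was 10.6 to 15.2 CPM (Retnlg) and 10.7 to 12.7 CPM (Fcnb). C/EBP alpha RNA was thus lower in the Fcnb and Retnlg gates than in both Mpo gates in each library.

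Spi1 was present in every myeloid gate. Its level was 374, 357 and 350 CPM in the Retnlg gate and 333, 327 and 317 CPM in the Fcnb gate, and these ranges do not overlap. The Csf1r with Ccr2 gate (229 to 258 CPM), Mpo with F13a1 gate (207 to 240), Mpo without F13a1 gate (197 to 214) and Cd34 with Adgrl4 gate (183 to 199) formed a series in which each neighbour overlapped the one above. The Siglech gate was lowest at 134, 141 and 144 CPM.

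Cebpb and Cebpe, 2 further C/EBP factors, peaked at different stages of the neutrophil path. Cebpb was highest in the Retnlg gate, with 508, 490 and 466 CPM, and its range there lay above all other gates. Csf1r with Ccr2 followed at 275 to 296 CPM, then Fcnb at 215 to 283 and Mpo with F13a1 at 194 to 233, each overlapping the gate above. Cebpe was highest in the Fcnb gate, with 437, 494 and 451 CPM, where 54.9% to 58.2% of cells had a UMI when each cell was thinned to 2000 UMIs, against 1.63% to 2.51% in the Csf1r with Ccr2 gate. It was 163, 154 and 176 CPM in the Retnlg gate and 106, 128 and 132 CPM in the Mpo without F13a1 gate, and these 3 gates did not overlap. Monocyte and dendritic gates were low for Cebpe, at 11.9 to 15.8 CPM (Csf1r with Ccr2) and 2.38 to 8.12 CPM (Siglech), the latter from 21, 5 and 2 UMIs.

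Irf8 and Klf4 had their highest levels in the dendritic and monocyte gates. Irf8 was 1685, 1487 and 1969 CPM in the Siglech gate, and 94.1%, 95.7% and 96.2% of those cells had an Irf8 UMI at the same depth, against 5.36%, 1.82% and 2.31% in the Fcnb gate. The Csf1r with Ccr2 gate (329 to 360 CPM), the Mpo with F13a1 gate (245 to 277) and the Cd34 with Adgrl4 gate (156 to 185) followed without overlap. Retnlg, Mpo without F13a1 and Fcnb were lowest and overlapped, between 11.7 and 62.4 CPM. Klf4 was 75.7, 73.1 and 91.8 CPM in the Siglech gate and 75.4, 51.1 and 53.7 CPM in the Csf1r with Ccr2 gate, which overlap, and 24.9 to 45.2 CPM in the Mpo with F13a1 gate. In the Retnlg gate (4.45 to 10.6 CPM) and the Mpo without F13a1 gate (3.01 to 7.47) Klf4 was sparse, with a UMI in at most 0.802% and 1.05% of cells thinned to 2000 UMIs.

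Gfi1, the repressor of monocyte genes, was ordered in the opposite way to Irf8 between the Mpo gates. Its level was 36.9, 44.3 and 55.1 CPM in the Mpo without F13a1 gate and 21.5, 23.8 and 29.8 CPM in the Mpo with F13a1 gate, with no overlap. The corresponding Irf8 levels were 45.8, 33.5 and 32.2 CPM without F13a1 and 277, 268 and 245 CPM with F13a1. Cd34 with Adgrl4 (20.8 to 29.9 CPM) and Fcnb (22.8 to 31.1) overlapped the Mpo with F13a1 gate, and the Siglech gate was lowest for Gfi1 at 3.58 to 9.74 CPM.

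**Figure D1:**
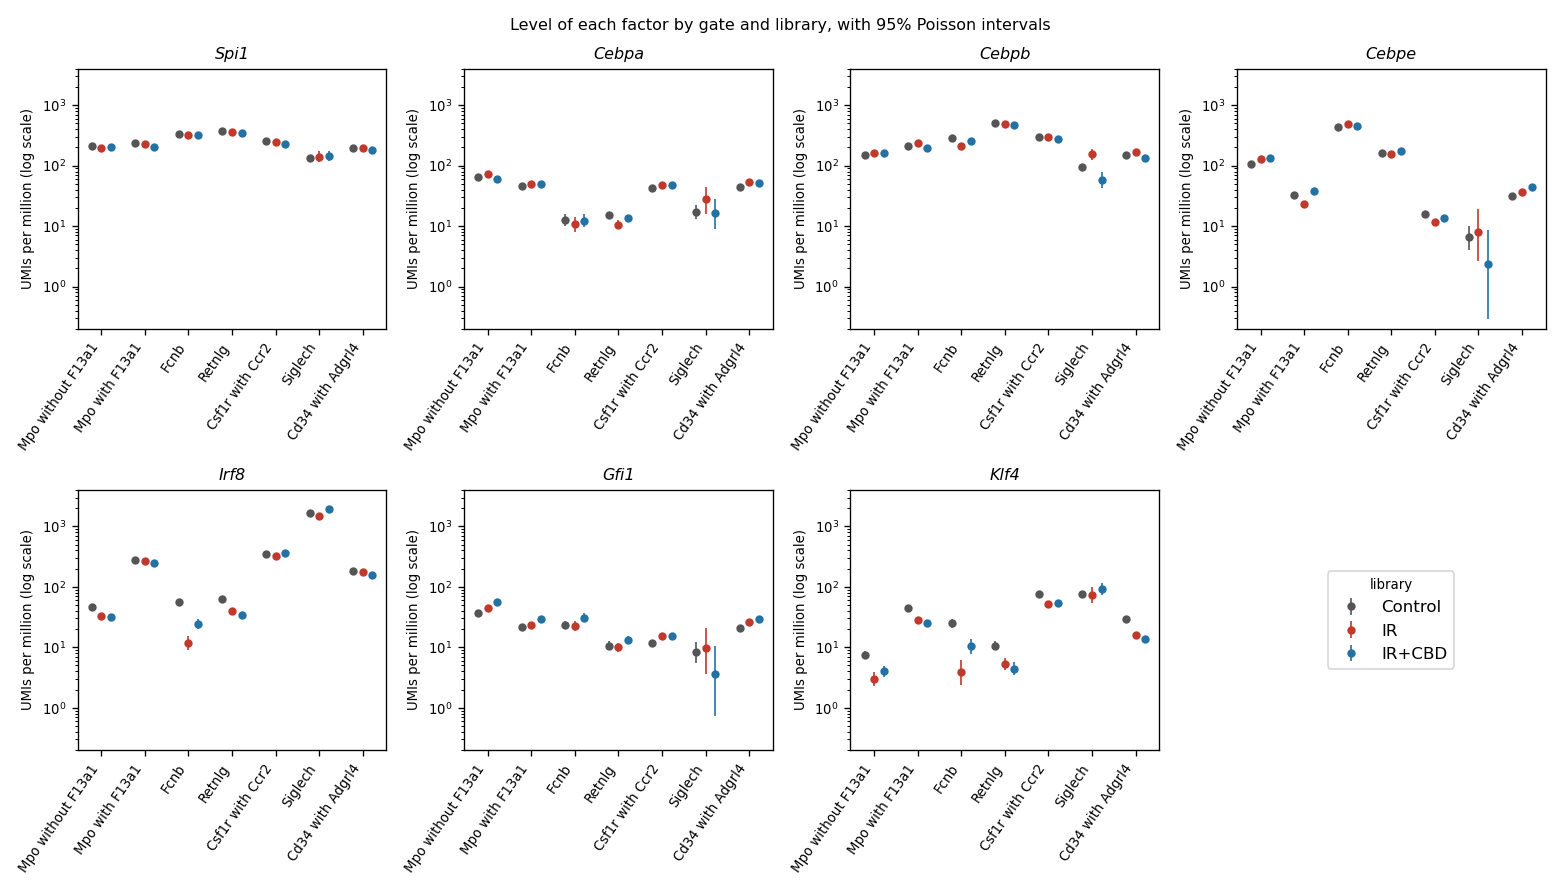
Level of each factor (CPM, log axis) in the 7 myeloid gates for Control (grey), IR (red) and IR+CBD (blue), with bars for 95% Poisson intervals. Irf8 stands at 1487 to 1969 CPM in the Siglech gate, Cebpe at 437 to 494 CPM in the Fcnb gate, and Klf4 is highest in Control in 6 of the 7 myeloid gates.

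Across the 21 sums of 7 gates by 3 libraries, the log2(CPM + 1) levels of Irf8 and Klf4 had a Pearson correlation of 0.915, those of Spi1 and Cebpb 0.877, and those of Cebpe and Irf8 -0.953. These sums share libraries and, because gates overlap, cells, so the values describe the gates and carry no test. Among 14291 genes the closest pattern to Spi1 was that of Mtus1 (0.982), followed by App (0.978) and Lst1 (0.976). The patterns closest to Cebpa were those of Calr (0.984), Nop10 (0.976) and Wdr83 (0.976), and those closest to Cebpb were Nadk (0.928), Tnfaip2 (0.917) and ENSMUSG00000120030 (0.916). Prom1 (0.974), Mcu (0.972) and Gys1 (0.962) came closest to Cebpe, and Rgcc (0.956), Nkg7 (0.946) and Per3 (0.945) to Gfi1. For Irf8 these were ENSMUSG00000121482 (0.982), Scpep1 (0.981) and Cds1 (0.981), and for Klf4 Ptpro (0.958), Gm15987 (0.957) and Apba1 (0.948).

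Irf8 and Gfi1 are known to oppose each other, so single cells of both Mpo gates were examined after thinning each to 5000 UMIs. The Mpo without F13a1 gate then held 929, 750 and 985 cells, and Gfi1 alone was seen in 13.7% (11.5 to 16.0), 19.9% (17.1 to 22.9) and 21.8% (19.3 to 24.5) of them. Irf8 alone was seen in 121, 65 and 89 of these cells, the last 2 being 8.67% (6.75 to 10.9) and 9.04% (7.32 to 11.0). Thus Control had the lowest Gfi1 share, with an interval that does not overlap the others. Its Irf8 share was the highest, but the interval began at 10.9%, inside that of IR+CBD and at the upper end of that of IR. These intervals count cells of 1 library per group, so they do not bear on variation between mice. Both factors were seen in 0.969% (0.444 to 1.83), 1.6% (0.829 to 2.78) and 0.711% (0.286 to 1.46) of cells, against 2.05%, 2.2% and 2.2% for the product of the 2 shares. With F13a1, 56.2%, 58.4% and 50.4% of cells had Irf8 alone and 6.95%, 6.64% and 8.34% had Gfi1 alone. Both were seen in 3.32% (2.5 to 4.31), 4.1% (3.22 to 5.14) and 4.23% (3.33 to 5.29) of those cells, against products of 6.11%, 6.71% and 6.87%. The share with both was below the product in all 6 gate and library pairs, and the product lay outside the interval in 5 of them, the exception being IR without F13a1. Each gate pools cells of several stages, and Mpo without F13a1 also held RNA of other granulocyte lineages. Whether the shortfall holds within a stage or lineage was not tested. Without thinning, both were seen in 10.0% to 14.4% of cells without F13a1 (products 11.8% to 15.2%) and in 28.9% to 36.6% with F13a1 (products 35.2% to 40.3%). Thinning left out at most 25 cells of a gate in a library.

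**Figure D2:**
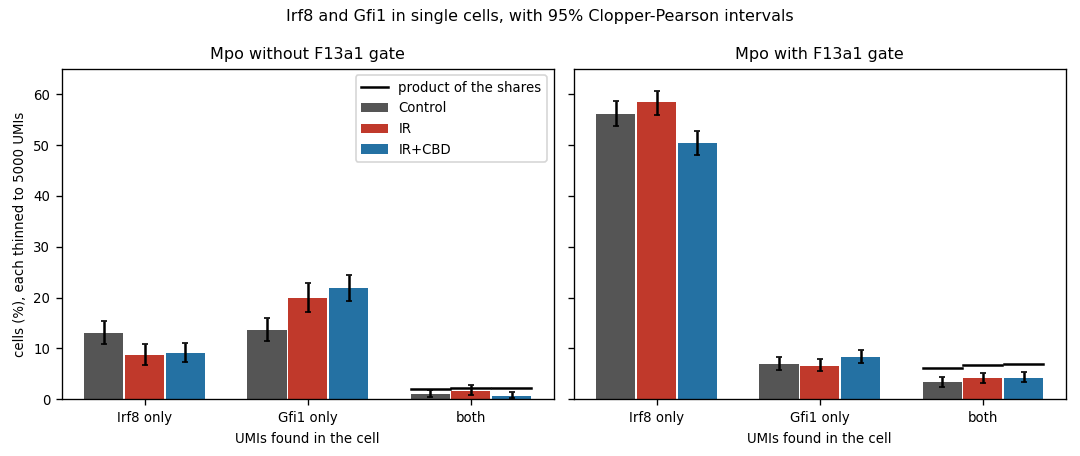
Cells (%) of the 2 Mpo gates with a UMI of Irf8 only, of Gfi1 only or of both, after thinning to 5000 UMIs, for the 3 libraries with 95% Clopper-Pearson intervals; black lines give the product of the 2 shares. Gfi1-only cells without F13a1 number 13.7% in Control and 19.9% and 21.8% after irradiation, and cells with both stay below the lines.

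Irradiated marrow was compared with unirradiated marrow first over all cells. In sums over a mixed population, fewer cells of a type and less RNA per cell cannot be told apart. Klf4 was 36.0 CPM in Control and 18.0 in IR, a ratio of 0.501 (0.481 to 0.522), and was the 1 member of 7 past the fold, where 15.1% of all 20226 genes measured were past it. Irf8, at 178 and 120 CPM, had a ratio of 0.671 (0.66 to 0.682), just short of the fold. Spi1 was 188 and 154 CPM (0.818), Cebpa 31.2 and 27.8 (0.891), Cebpb 186 and 166 (0.893), Cebpe 49.5 and 45.7 (0.924) and Gfi1 18.5 and 17.7 (0.959). The members' median log2 ratio was -0.17, against -0.05 over all genes. All 7 ratios were below 1, and the interval of Gfi1 (0.915 to 1.0) reached it. Without cells of more than 1 gate the Irf8 ratio was 0.473, past the fold.

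The mix of cells differed between these libraries. Cells of any myeloid gate made up 51.5%, 41.6% and 46.6% of a library and those of the Siglech gate 2.56%, 0.445% and 0.769%. Klf1, a factor of erythroid cells, was 26.7, 69.3 and 61.1 CPM over all cells. Each cell was then assigned to the first gate it passed, the Mpo gates coming first and Cd34 with Adgrl4 last of the myeloid gates. Later classes thus held only part of their gate. They held 340 of 1353 Control and 202 of 1238 IR cells for Csf1r with Ccr2, and 1296 of 3116 and 431 of 1952 for Cd34 with Adgrl4. The values below rest on this order. With the classes weighted as in Control, the IR to Control ratio of Irf8 was 0.882, of Spi1 0.956 and of Cebpb 1.03. That of Cebpe was 1.04, of Cebpa 1.13 and of Gfi1 1.17. Klf4 alone stayed past the fold, at 0.656. For Irf8, the Siglech class supplied 13.2% of all UMIs in Control and 2.8% in IR, and the Mpo with F13a1 class 53.5% in Control and 67.5% in IR. For Klf4, the Mpo with F13a1 class supplied 43.4% of UMIs in Control and 46.6% in IR.

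**Figure D3:**
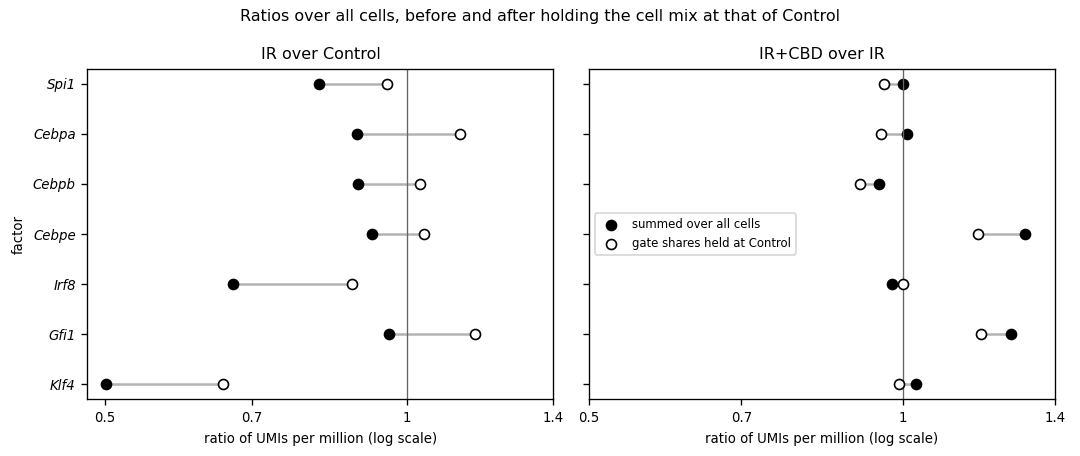
Ratio of each factor over all cells (log axis) as summed (filled) and with gate shares held at those of Control (open), for IR over Control and IR+CBD over IR. For IR over Control the open points lie right of the filled ones for all 7 factors, and Klf4 remains lowest at 0.656.

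Within gates, 9 of the 47 member and gate pairs with enough UMIs (of 49) were past the fold between IR and Control, 2 higher and 7 lower, against 10.3% of all gene and gate pairs. By gate the background was 8.56% of genes for Mpo without F13a1, 8.38% for Mpo with F13a1, 11.0% for Fcnb, 9.54% for Retnlg, 8.24% for Csf1r with Ccr2, 17.5% for Siglech and 12.2% for Cd34 with Adgrl4. The members past the fold numbered 1, 1, 2, 2, 0, 2 and 1 in the same order. Klf4 accounted for 5 of the 7 lower pairs and Irf8 for the other 2, and 4 of these 7 were above 1 under an alternative, as given below for each.

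Klf4, a zinc finger factor of monocyte differentiation, had a ratio of IR to Control below 1 in all 7 gates. In the Mpo with F13a1 gate it was 45.2, 27.9 and 24.9 CPM, an IR to Control ratio of 0.616 (0.58 to 0.654), and 8.59%, 5.37% and 4.22% of cells thinned to 2000 UMIs had a UMI, against 1.05%, 0.529% and 0.398% in the Mpo without F13a1 gate. Without cells of more than 1 gate, which leaves out 71.3% to 84.2% of that gate, the ratio was 0.837 and within the fold. Of the 6 monocyte markers 1 was lower in IR past the fold there, Fn1 at 9.63, 4.21 and 3.51 CPM, and the other 5 had IR to Control ratios of 1.0 to 1.36, led by Ly6c2 (807, 1093 and 853 CPM). Their part in the Klf4 value was not tested. In the Cd34 with Adgrl4 gate Klf4 was 29.5, 15.7 and 13.8 CPM (0.531, 0.494 to 0.57), and the ratio was 0.312 when cells of more than 1 gate were left out. In the Csf1r with Ccr2 gate the ratio was 0.678 (0.643 to 0.715), within the fold, and 0.963 without cells of other gates. The Siglech gate had 75.7 CPM in Control and 73.1 in IR, with intervals that overlap (ratio 0.965, 0.686 to 1.33, and 1.65 without cells of other gates). Both irradiated libraries were below Control without overlap of counting intervals in the Mpo with F13a1, Cd34 with Adgrl4 and Csf1r with Ccr2 gates.

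Lower Klf4 values in the neutrophil gates rest on few UMIs. The Fcnb gate held 24.9, 3.9 and 10.4 CPM, from 159, 19 and 55 UMIs in 28, 7 and 11 cells. Its ratio of 0.156 for IR over Control was 1.76 with gate thresholds set per 10000 UMIs. In the Retnlg gate (10.6, 5.26 and 4.45 CPM) the ratio of 0.495 was 1.54 once predicted doublets were removed. In the Mpo without F13a1 gate (7.47, 3.01 and 4.03 CPM) the ratio of 0.404 was 1.28 without cells of other gates. The direction of the Klf4 ratio thus turned with the choice of cells in these 3 gates.

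Irf8, the interferon regulatory factor of monocytes and dendritic cells, was nearly level between IR and Control in the gates that express it. It was 277 and 268 CPM in the Mpo with F13a1 gate (0.968, 0.948 to 0.988), 348 and 329 in the Csf1r with Ccr2 gate (0.946, 0.925 to 0.967) and 1685 and 1487 in the Siglech gate (0.883, 0.822 to 0.947). In the Cd34 with Adgrl4 gate the ratio was 0.949 (0.927 to 0.972), and 0.45 without cells of other gates. Lower values were seen in cells where Irf8 is sparse: 45.8 and 33.5 CPM in the Mpo without F13a1 gate (0.732), 62.4 and 39.8 in the Retnlg gate (0.638) and 55.4 and 11.7 in the Fcnb gate (0.211). The Retnlg value was 1.32 after removal of predicted doublets. In the Fcnb gate monocyte markers moved with Irf8: 4 of 5 measured monocyte markers were past the fold and lower in IR, among them Ccr2 at 37.1, 2.87 and 15.4 CPM and F13a1 at 110, 20.3 and 54.3 CPM, though all 6 markers summed to 1196, 1104 and 1089 CPM, of which Ly6c2 made up 953, 1062 and 975. Their part in the Irf8 and Klf4 values of that gate was not tested.

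The Irf8 levels stood beside a wide interferon response. Of 20 interferon response genes, 16 were past the fold and higher in IR than in Control over all cells, with a median log2 ratio of 2.09, among them Isg15 (12.3 and 67.1 CPM), an interferon-induced ubiquitin-like protein, and Irf7 (5.75 and 27.3 CPM), a factor of the same family as Irf8. In the Mpo with F13a1 gate 16 of 19 measured genes were past the fold and higher, and Irf1, a factor induced by interferon gamma, was 19.1 and 23.4 CPM. Irf8 had an IR to Control ratio below 1 in all 7 gates. Beside the Retnlg value above, it was above 1 in Mpo with F13a1 (1.19 without cells of other gates) and in Cd34 with Adgrl4 (1.04 by the mean of per-cell CPM). A link of the Irf8 levels to the interferon response or to the promoter matches shown above was not tested.

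The other factors differed less between IR and Control. Spi1 ratios of IR to Control ran from 0.922 to 1.06 over the 7 gates. Cebpa was higher in IR in the Cd34 with Adgrl4 gate (43.9 and 53.7 CPM, 1.22, 1.17 to 1.28) and the Mpo without F13a1 gate (1.12, 1.04 to 1.2). Without cells of other gates these were 1.64 and 0.939. Its 1.6 in the Siglech gate (0.869 to 2.79) rested on 55 and 17 UMIs and was 1.05 without cells of other gates. Gfi1 was higher in IR in 4 progenitor and monocyte gates, with ratios of 1.2 (1.1 to 1.31) in Mpo without F13a1, 1.11 (1.03 to 1.19) in Mpo with F13a1, 1.26 (1.13 to 1.41) in Csf1r with Ccr2 and 1.28 (1.2 to 1.37) in Cd34 with Adgrl4. Without cells of other gates these were 1.14, 0.913, 2.08 and 1.74, so the order and, in Mpo with F13a1, the direction rest on shared cells. Cebpe was higher in the Mpo without F13a1 gate (1.21, 1.15 to 1.28) and lower in the Mpo with F13a1 gate (0.712, 0.665 to 0.761). Other lineages differed in the Mpo without F13a1 gate, where 5 eosinophil markers summed to 832, 1728 and 997 CPM and 5 basophil and mast cell markers to 1929, 1576 and 924 CPM. The 5 erythroid markers summed to 39.5, 370 and 35.8 CPM there. The part of these lineages in the values of that gate was not tested.

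Cebpb differed by more than 1.5-fold in 1 gate. In the Siglech gate it was 95.5, 154 and 58.4 CPM, a ratio of 1.61 (1.27 to 2.04) for IR over Control, which was 1.16 without cells of other gates and 1.14 with thresholds per 10000 UMIs. Mature neutrophil markers moved with it there: all 6 summed to 182, 1608 and 632 CPM, and Retnlg was 135, 1392 and 564 CPM. Those RNAs are known from neutrophils, and their part in the Cebpb value was not tested. In the Retnlg gate itself Cebpb was level, at 508 and 490 CPM (0.964, 0.932 to 0.997).

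**Figure D4:**
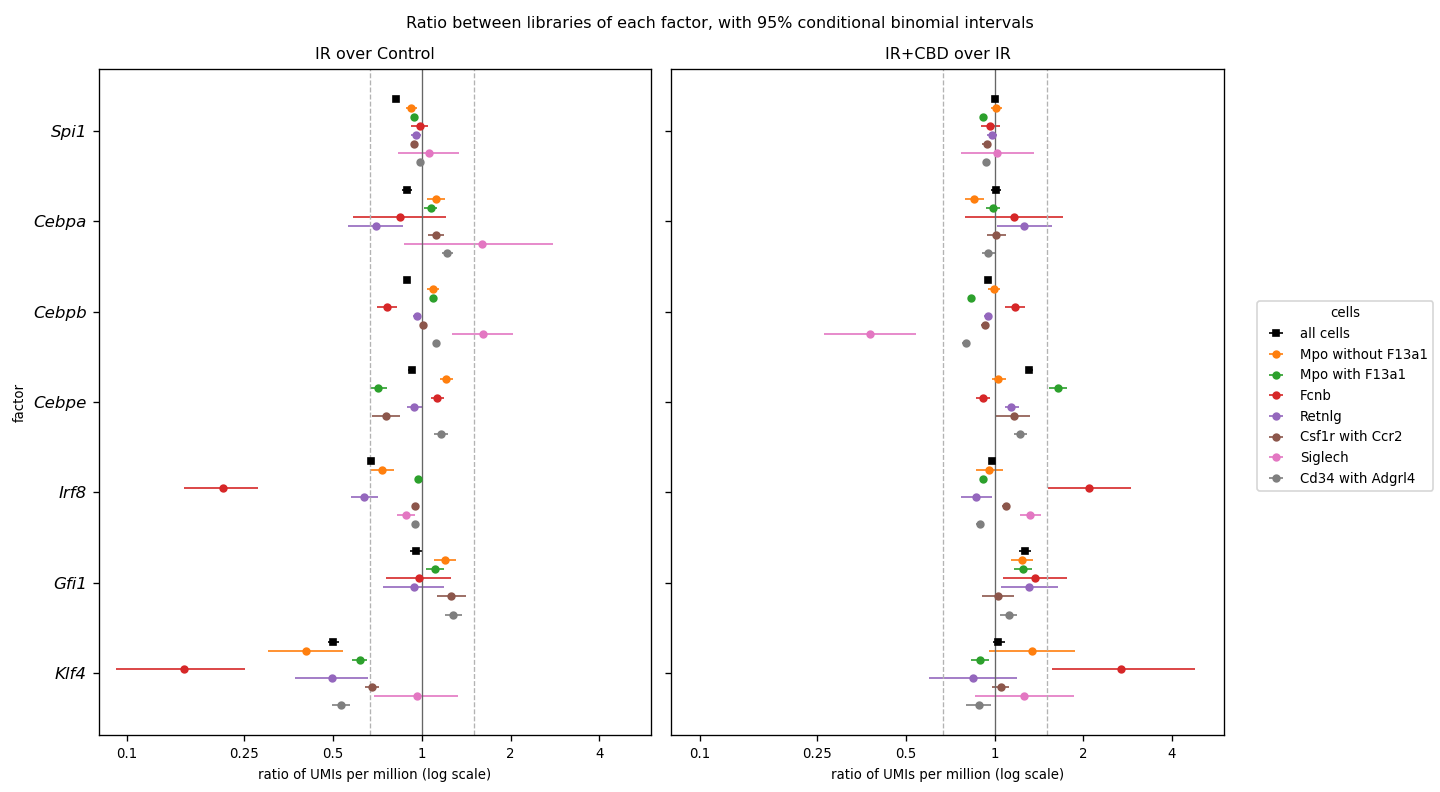
Ratio of CPM (log axis) of each factor for IR over Control and IR+CBD over IR, over all cells (squares) and in the 7 myeloid gates (circles), with 95% conditional binomial intervals; dashed lines mark 1.5-fold and pairs with under 50 UMIs are left out. Klf4 lies left of 1 in each gate of the first panel, and most points of the second panel lie between the dashed lines, with Cebpe in the Mpo with F13a1 gate at 1.64.

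Cannabidiol-treated irradiated marrow was compared with irradiated marrow to see which levels differed with the treatment. This comparison shares the IR library with the one above. Over all cells 0 of 7 members were past the fold, where 5.67% of 19867 genes were, and the median log2 ratio was 0.02 for the members and 0.00201 for all genes. The neutrophil factors stood highest: Cebpe was 45.7 CPM in IR and 60.0 in IR+CBD (1.31, 1.28 to 1.35), and Gfi1 was 17.7 and 22.5 (1.27, 1.21 to 1.33). With gate shares held at Control these ratios were 1.18 and 1.19. Klf4 (18.0 and 18.6 CPM, 1.03), Irf8 (120 and 117, 0.977), Cebpa (27.8 and 28.2, 1.01), Spi1 (154 and 154, 1.0) and Cebpb (166 and 157, 0.948) were close to 1.

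Within gates, 4 of 46 pairs were past the fold, 3 higher and 1 lower, against 6.1% of all gene and gate pairs. The background was 5.1% of genes for Mpo without F13a1, 5.82% for Mpo with F13a1, 6.45% for Fcnb, 5.48% for Retnlg, 5.83% for Csf1r with Ccr2, 13.9% for Siglech and 5.26% for Cd34 with Adgrl4, where 0, 1, 2, 0, 0, 1 and 0 members were past it. The 4 pairs were Cebpe in Mpo with F13a1, Irf8 and Klf4 in Fcnb, and Cebpb in Siglech.

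Cebpe, the factor of secondary granule formation, was 33.1, 23.5 and 38.6 CPM in the Mpo with F13a1 gate. IR was lowest and IR+CBD highest, with counting intervals that do not overlap, and the ratio of IR+CBD to IR was 1.64 (1.53 to 1.76). Without cells of other gates it was 1.39, within the fold, and the ratio of IR+CBD to Control went from 1.17 to 0.896. Neutrophil RNA moved with it: the 6 neutrophil precursor markers summed to 1003, 741 and 996 CPM and the 6 mature neutrophil markers to 130, 124 and 189 CPM in that gate, and of the 6 secondary granule genes 0 were past the fold, with Lcn2 at 218, 148 and 222 CPM and Ngp at 292, 210 and 305 CPM. Their part in the Cebpe value was not tested. In the Mpo without F13a1 gate Cebpe was level between IR and IR+CBD (128 and 132 CPM, 1.03, 0.977 to 1.09), and in the Fcnb gate, its main site, it was 494 and 451 CPM (0.913, 0.862 to 0.967).

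Gfi1 was higher in IR+CBD than in IR in 6 of the 6 gates with enough UMIs, each within the fold. In the Mpo without F13a1 gate the ratio was 1.24 (1.14 to 1.35), in Mpo with F13a1 1.25 (1.16 to 1.34), in Fcnb 1.37 (1.07 to 1.76), in Retnlg 1.31 (1.05 to 1.64), in Cd34 with Adgrl4 1.12 (1.04 to 1.19) and in Csf1r with Ccr2 1.03 (0.904 to 1.16). Leaving out cells of other gates gave 0.896 in Cd34 with Adgrl4 and 1.65 in Csf1r with Ccr2, and removal of predicted doublets gave 0.88 in Retnlg. With thresholds per 10000 UMIs the ratio in Csf1r with Ccr2 was 0.883. The direction thus turned with the choice of cells in these gates, and the gates share cells. The primary granule and granulocyte receptor genes were higher in IR+CBD than in IR in 6 of 6 cases over all cells, and 0 of them were past the fold. Their median log2 ratio was 0.24, against 0.00201 over all genes, and a link to Gfi1 was not tested. Elane, the neutrophil elastase, was 1644 and 2135 CPM.

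Irf8 and Klf4 were higher in IR+CBD than in IR in the Fcnb gate, at 2.09 (1.52 to 2.91) and 2.68 (1.57 to 4.78). The monocyte marker Ccr2 was higher there too (2.87 and 15.4 CPM). Few cells held these UMIs. Irf8 was seen in 17 of 220 IR cells (7.73%) and 22 of 260 IR+CBD cells (8.46%), and Klf4 in 7 (3.18%) and 11 (4.23%). The Irf8 and Klf4 ratios turned to 0.664 and 0.0809 with thresholds per 10000 UMIs, and were 2.29 and 16.7 without cells of other gates. In the gates with most Irf8 the ratios were 0.914 (0.892 to 0.935) in Mpo with F13a1, 1.09 (1.06 to 1.12) in Csf1r with Ccr2 and 1.32 (1.22 to 1.44) in Siglech, the last with 1487 CPM in IR and 1969 in IR+CBD. Klf4 was 27.9 and 24.9 CPM in Mpo with F13a1 (0.892, 0.829 to 0.96) and 51.1 and 53.7 in Csf1r with Ccr2 (1.05, 0.982 to 1.12). In both gates, which share most cells of the Csf1r with Ccr2 gate, Klf4 of IR+CBD was thus near IR and below Control. Without cells of other gates the IR+CBD to IR ratios were 0.982 and 0.821, and those of IR to Control 0.837 and 0.963. Cebpb was lower in IR+CBD in the Siglech gate (0.379, 0.263 to 0.54), beside the neutrophil markers given above, and in Cd34 with Adgrl4 (169 and 135 CPM, 0.797, 0.774 to 0.821). Interferon response genes were lower in IR+CBD than in IR over all cells, 17 of 20 past the fold with a median log2 ratio of -1.8.

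The last comparison shares both its libraries with those above. Against Control, the IR+CBD library had 2 of 7 members past the fold over all cells, where 12.4% of 19998 genes were. Both were lower, Klf4 at 36.0 and 18.6 CPM (0.518, 0.496 to 0.54) and Irf8 at 178 and 117 CPM (0.656, 0.645 to 0.668). Gfi1 (18.5 and 22.5 CPM, 1.22) and Cebpe (49.5 and 60.0, 1.21) were higher, within the fold. With gate shares held at Control, Irf8 was 0.886, Klf4 0.65 and Gfi1 1.4. In the gates 8 of 47 pairs were past the fold, all lower, against 8.34% of gene and gate pairs. The background was 8.31% for Mpo without F13a1, 7.25% for Mpo with F13a1, 7.79% for Fcnb, 7.7% for Retnlg, 6.6% for Csf1r with Ccr2, 13.6% for Siglech and 9.08% for Cd34 with Adgrl4, where 1, 1, 2, 2, 0, 1 and 1 members were past it. Klf4 made up 5 of the 8 pairs, Irf8 2 and Cebpb 1. Of the 8, 5 were above 1 under an alternative: Irf8 (1.01) and Klf4 (1.73) in Fcnb and Klf4 in Mpo without F13a1 (1.13) without cells of other gates, and Irf8 (1.07) and Klf4 (1.39) in Retnlg without predicted doublets. Klf4 in Mpo with F13a1 went from 0.549 to 0.822 without cells of other gates. Gfi1 came close to the fold in Mpo without F13a1, at 36.9 and 55.1 CPM (1.49, 1.37 to 1.62), and in Cd34 with Adgrl4 (1.43, 1.34 to 1.53). The first was 1.26 without cells of other gates and 1.75 by the mean of per-cell CPM. The second was 1.41 with doubled thresholds and 1.62 by the mean of per-cell CPM.

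A list of 24 related factors was read beside the members. Over all cells 1 was higher and 4 were lower in IR than in Control past the fold, with a median log2 ratio of -0.25, where 15.1% of all genes were past it. Gfi1b, the erythroid and megakaryocyte relative of Gfi1, was 17.5, 40.8 and 36.6 CPM, beside the Klf1 levels given above, and the part of erythroid RNA in it was not tested. The lower ones were Runx2 (113 and 54.5 CPM), the stimulus-induced factors Egr1 (179 and 77.9) and Egr2 (1.57 and 0.929), and Klf2 (66.5 and 44.1), a relative of Klf4. Within the Mpo with F13a1 gate Egr1 was 40.9, 19.5 and 33.9 CPM and Klf2 45.2, 28.6 and 36.6 CPM, so both were lowest in IR, whereas Klf4 was lowest in IR+CBD. Between IR+CBD and IR 0 of the 24 were past the fold over all cells, with a median log2 ratio of 0.04. Cebpd (61.4, 59.1 and 64.3 CPM) and Cebpg (32.5, 31.1 and 30.9), the remaining C/EBP genes on the list, were level.

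The genes that mark the fates were read in the same way. Of 10 monocyte and macrophage genes 1 was past the fold and lower in IR than in Control over all cells, beside 15.1% of all genes, Mpeg1 (ratio 0.652), a pore-forming protein of macrophages, with a list median log2 ratio of -0.23. In the Mpo with F13a1 gate 0 of 10 were past it, and their median log2 ratio was 0.15. Of 6 secondary granule genes, which depend on Cebpe, 0 were past the fold over all cells in either comparison, with median log2 ratios of 0.16 for IR over Control and 0.08 for IR+CBD over IR. Primary granule genes had 0 of 6 past the fold for IR over Control, with a median of -0.17.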

How the data were processed

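The authors sorted BMNCs, prepared 1 droplet library per group with 3' chemistry and deposited, for each library, a matrix of raw UMI counts per gene and cell without normalization. The submitters' processing notes name Cell Ranger 4.0 and build GRCm39, while the deposited matrix headers name Cell Ranger 7.0.1, a release that counts intronic reads by default. Cell calling preceded deposit.

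UMIs were summed in Python 3.11.15 (pandas 2.3.3, scipy 1.17.1, numpy 2.4.6) over kept cells (at least 200 genes, at most 5% mitochondrial UMIs), and figures were drawn with matplotlib 3.10.9. Ratios carry exact conditional binomial intervals, shares exact Clopper-Pearson ones and CPM exact Poisson ones. These cover counting error only, and molecules of 1 pool are not replicates. Those of CPM and of ratios leave out the spread between cells. No test between groups was made. Gates of 2 other lineages also counted when cells were assigned to gates or found in more than 1 of them, and are not reported here. Doublets were kept, and Scrublet in scanpy 1.11.5 was used to remove them as an alternative (911 Control, 856 IR and 844 IR+CBD cells, 0.8% per 1000 cells). The members, gates and gene lists were chosen with earlier results of these data known. Named genes were all members, genes of the lists past 1.5-fold or used as marker checks, and the 3 genes closest to each member by Pearson correlation among genes with at least 500 UMIs. Lcn2, Ngp, Elane, Irf1, Cebpd, Cebpg, Pecam1, Fn1 and Ly6c2 were named from the lists after their values were seen. Intervals were run on simulated Poisson counts with known ratios, the same model that the intervals assume. This checks the calculation only, and does not cover UMIs that cluster in cells.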

Additional observations from a re-analysis of the deposited data

How the results depend on the processing

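With each condition a single library, no alternative bears on variation between mice, and sparse members in small gates limit the depth. No paired analysis was possible because each condition is 1 library. Other settings changed the filters on cells, the removal of predicted doublets or of cells in more than 1 gate, the gate thresholds, the weight of cells, the scaling, the UMI minimum and the fold.

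Of 7 members over all cells, 1 was past the fold for IR over Control, and 2 were without cells of more than 1 gate, 2 by the mean of per-cell CPM and 0 at 2-fold. For IR+CBD over Control the 2 became 0 by the mean of per-cell CPM, 1 with median-of-ratios size factors and 0 at 2-fold. For IR+CBD over IR the count of 0 held under all alternatives run. Among member and gate pairs, the 9 for IR over Control became 4 and the 8 for IR+CBD over Control became 4 at 2-fold, and the 4 for IR+CBD over IR became 2 without cells of more than 1 gate, 1 with at least 200 UMIs and 7 with no minimum. The cause was not tested, other than the stricter or wider rule itself for the fold and the minimum.

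Of 1428 values of 161 ratios under alternatives, 135 lay across 1 from the reported value, in 66 ratios and for every member, 37 of the 135 without cells of more than 1 gate. Among ratios past the fold, 13 values lay across 1, all of Irf8 or Klf4. Without cells of more than 1 gate, IR+CBD over Control was 1.01 for Irf8 and 1.73 for Klf4 in Fcnb, and Klf4 in Mpo without F13a1 was 1.28 for IR over Control and 1.13 for IR+CBD over Control. With thresholds per 10000 UMIs in Fcnb, IR+CBD over IR was 0.664 for Irf8 and 0.0809 for Klf4, and IR over Control was 1.76 for Klf4. With doubled thresholds IR+CBD over IR was 0.823 and 0.0648 in Fcnb. With predicted doublets removed in Retnlg, IR over Control was 1.32 for Irf8 and 1.54 for Klf4, and IR+CBD over Control was 1.07 and 1.39. The cause was not tested. Of the 1428 values, 1106 stayed within the counting interval of the reported ratio, 309 moved beyond it and these 13 turned. Size factors shifted ratios by over 0.1 on the log2 scale in 1 case, by 0.129 for IR over Control in Fcnb.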
